A study of Mus musculus with 8 samples.

Results

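The gap junction genes *Gjb1* and *Gjc3* and the potassium channel genes *Kcnj10*, *Kcna1*, *Kcna2* and *Kcnk1* were taken by name, 6 of the 18833 genes in the deposited expression matrix. All 6 were found in it. They were described in 12581 mature oligodendrocytes from 8 single-cell RNA sequencing libraries, in the 4 oligodendrocyte clusters that the authors deposited (Oligo1 to Oligo4), between genotypes and between brain regions.

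The libraries came from 4 female mice. Mice 1 and 4 were *Fire*+/+ (labelled WT) and mice 3 and 6 were *Fire*Δ/Δ (labelled KO), which lack the *Fire* enhancer within an intron of *Csf1r*, the receptor that microglia need to survive. *Fire*Δ/Δ mice lack microglia but keep other brain macrophages, and every cell of the animal carries the deletion, oligodendrocytes included. Mice 1 and 3 were aged 1 month and 18 days and mice 4 and 6 were aged 1 month and 16 days. Each mouse gave 1 hippocampus library, from both hemispheres, and 1 library labelled cortex, which was the rest of the left hemisphere once the hippocampus, olfactory bulb and cerebellum had been taken away. Tissue was dissociated with actinomycin D present, and live single cells were sorted by scatter and a viability dye. The authors' batches 3 and 5 held hippocampus and batches 4 and 6 held cortex, so region and batch cannot be told apart. Each batch held 1 *Fire*+/+ and 1 *Fire*Δ/Δ library of mice of the same age. Batches 3 and 4 both held mice 1 and 3, and batches 5 and 6 both held mice 4 and 6.

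Connexins form gap junctions, pores that join the cytoplasm of neighbouring cells or of successive layers of one myelin sheath. *Gjb1* encodes connexin 32, which joins layers of myelin within a sheath, and *Gjc3* encodes connexin 29, a myelin connexin found mostly next to the axon. Neurons release potassium when they fire, and glia take it up through inward rectifier channels and pass it on through gap junctions. *Kcnj10* encodes Kir4.1, the main inward rectifier of oligodendrocytes and astrocytes. *Kcna1* and *Kcna2* encode the voltage-gated subunits Kv1.1 and Kv1.2, best known from the axon membrane beside the node of Ranvier. *Kcnk1* encodes TWIK1, a two-pore-domain channel that carries a background potassium current.

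In the mouse genome build GRCm38, *Gjb1* (ENSMUSG00000047797) lies at chrX:101376378-101385629 on the plus strand, and *Gjc3* (ENSMUSG00000056966) at chr5:137953461-137963098 on the minus strand. *Kcnj10* (ENSMUSG00000044708) lies at chr1:172341210-172374085 on the plus strand. *Kcna1* (ENSMUSG00000047976) lies at chr6:126640397-126646384 on the minus strand and *Kcna2* (ENSMUSG00000040724) at chr3:107101146-107115005 on the plus strand. *Kcnk1* (ENSMUSG00000033998) lies at chr8:125995170-126030685 on the plus strand. All 6 are annotated as protein coding. No other annotated gene overlaps the first 5, and *Kcnk1* is overlapped by the antisense gene *Gm45875*, whose reads could be told apart from those of *Kcnk1* only if the counting used the strand.

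Each captured RNA molecule carried a unique molecular identifier (UMI), and the values are log2 of a cell's UMI count over its size factor, plus 1, called the log2 value below. Libraries held 904 to 2784 cells with medians of 9377 to 13725.5 UMIs per cell. *Csf1r* had 72 to 162 UMIs in each *Fire*+/+ library and 0 to 3 in each *Fire*Δ/Δ library, which matched the labels. All 6 oligodendrocyte marker genes looked for were in 100% of cells of every library, to the precision given. The 6 astrocyte markers together made 1.86 to 2.65 UMIs per 10000, the 4 neuronal ones 0.0875 to 0.222, the 4 progenitor ones 0.126 to 0.422 and the 3 endothelial ones 0.00602 to 0.125. The 5 microglial markers made 0.374 to 0.859 UMIs per 10000 in *Fire*+/+ and 0.150 to 0.212 in *Fire*Δ/Δ libraries. There were 21 cell barcodes found in 2 libraries, 42 cells in all. Oligo1 held 1558 cells, of which 6 came from *Fire*+/+ mice, so its values are given for the *Fire*Δ/Δ libraries alone. Oligo2 held 2382, Oligo3 7579 and Oligo4 1062 cells.

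Genotypes were compared over 2 mice against 2 and regions over 4 libraries against 4, with limma on mean log2 values and Benjamini-Hochberg adjustment over all genes tested. With 2 mice against 2, an exact permutation test cannot give a two-sided p under 0.333. Of the 6 genes, 5 had a UMI in at least 5% of cells and were tested, and *Kcnk1* did not and was not tested. No tested member passed an adjusted p of 0.05 in any of the 10 comparisons without a block. The region fits among them took both libraries of a mouse as separate samples, although they come from 1 animal. Over all genes, limma called 0.054% in all oligodendrocytes, 0.0215% in Oligo2, 0.0109% in Oligo3 and 0.0959% in Oligo4 between genotypes. It called 0% between regions in all oligodendrocytes and in each of the 4 clusters, and 0% for the genotype by region interaction, where 451, 285, 423, 361, 354 and 561 genes in that order had an unadjusted p under 0.05 and edgeR called 0, 3, 0, 0, 2 and 1 genes. With a block for mouse, which compares both libraries of each animal, limma on the same log2 values passed *Kcna2* as lower in hippocampus in Oligo3. Other blocked fits of Oligo3 passed *Gjb1* on other scales and *Kcna1* with mouse 4 left out. These other fits were not planned beforehand.

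Over all oligodendrocytes, *Gjc3* and *Kcna1* were found in nearly every cell and *Kcnk1* in few. The mean share of cells with a UMI was 99.6% for *Gjc3*, 98.3% for *Kcna1*, 92.8% for *Kcnj10*, 92.6% for *Gjb1*, 32.0% for *Kcna2* and 3.63% for *Kcnk1*. Shares of *Kcnj10* (86.7 to 97.1% over the libraries) and *Gjb1* (87.4 to 97.4%) overlapped. These shares depend on depth, and levels were not compared between genes.

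**Figure D1:**
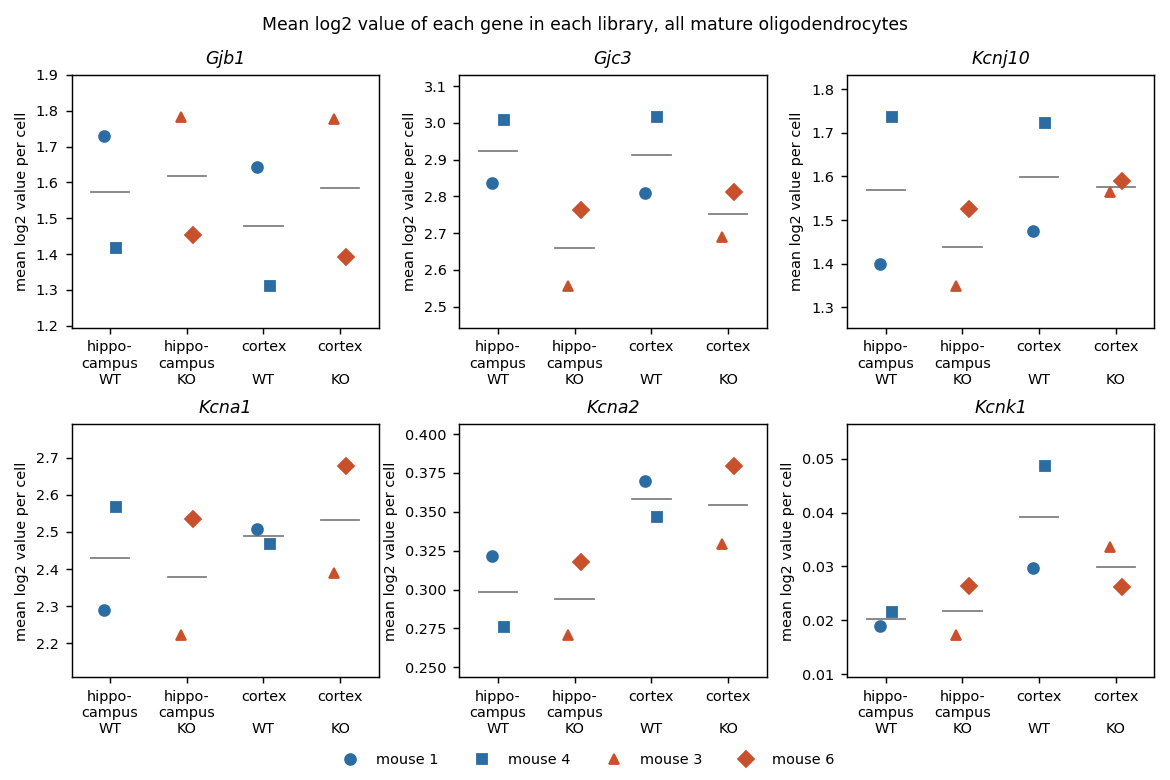
Mean log2 value per cell (y axis, one scale per gene, not starting at 0) of each gene in each of the 8 libraries, over all mature oligodendrocytes; symbols mark the mouse, blue WT and red KO, and lines mark the mean of the 2 libraries of a group. *Gjb1* sits at 1.64 to 1.78 in the libraries of mice 1 and 3 and at 1.31 to 1.45 in those of mice 4 and 6, and the hippocampus libraries of *Kcna2* (0.27 to 0.32) lie below its cortex libraries (0.33 to 0.38).

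*Gjb1* differed more between the pairs of mice of 1 age than between genotypes or regions. In *Fire*+/+ hippocampus its mean log2 value was 1.73 in mouse 1 and 1.42 in mouse 4, and in *Fire*Δ/Δ hippocampus it was 1.78 in mouse 3 and 1.45 in mouse 6. In cortex it was 1.64 in mouse 1, 1.31 in mouse 4, 1.78 in mouse 3 and 1.39 in mouse 6. The 4 libraries of mice 1 and 3 all lay above the 4 of mice 4 and 6, in all oligodendrocytes and within Oligo2, Oligo3 and Oligo4. Such a split was common: of all genes tested, 14.2% in all oligodendrocytes, 9.54% in Oligo2, 13.7% in Oligo3 and 6.13% in Oligo4 were higher in mice 1 and 3 without overlap. The pairs differ by 2 days of age in the labels and by batch, which cannot be told apart.

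Among clusters, *Gjb1* was highest in Oligo2. The mean log2 value over 8 libraries was 1.95 ± 0.21 (SD) in Oligo2, 1.48 ± 0.19 in Oligo3 and 1.21 ± 0.13 in Oligo4. Oligo2 lay above Oligo3 and Oligo3 above Oligo4 in 8 of 8 libraries, by medians of 0.45 and 0.23. Oligo1, with 1.64 ± 0.17 over 4 libraries, lay between Oligo2 and Oligo3 in 4 of 4. The clusters were made from the expression of these same cells, so the order is a description and was not tested.

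The *Gjb1* difference between genotypes was small beside the spread between mice. The mean log2 value was 1.53 ± 0.23 (SD, n = 2 mice) in *Fire*+/+ and 1.60 ± 0.25 (n = 2) in *Fire*Δ/Δ. The difference was 0.08 (SE 0.16, 95% interval -0.32 to 0.47, limma, adjusted p = 1.00), higher in *Fire*Δ/Δ in 4 of 4 batches, which share mice. In Oligo2 it was 0.0035, in Oligo3 0.06 and in Oligo4 0.05.

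*Gjb1* was higher in hippocampus than in cortex in each of the 4 mice, by 0.008 to 0.11 in all oligodendrocytes, by 0.06 to 0.15 in Oligo2 and by 0.05 to 0.14 in Oligo3. In Oligo4 it was higher in 2 of 4 mice (-0.06 to 0.11), and over Oligo2 to Oligo4 together in 3 of 4 (-0.017 to 0.10). The Oligo3 difference was 0.10 (SE 0.12, limma, adjusted p = 0.999), and with the mouse block adjusted p = 0.157. With the same block, edgeR on UMI sums (0.18, adjusted p = 0.0371) and limma on log2 of the mean normalized value plus 0.1 (0.18, adjusted p = 0.0415) passed. Both of these fits were run in Oligo3 alone and were added after the data had been seen. In Oligo3, *Gjb1* made 3.28 UMIs per 10000 in hippocampus against 2.79 in cortex in mouse 1, 3.34 against 2.99 in mouse 3, 2.33 against 2.07 in mouse 4 and 2.43 against 2.10 in mouse 6. In Oligo3 the direction was the same in every mouse, and the regions overlapped across mice.

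A few *Fire*Δ/Δ oligodendrocytes had more *Gjb1* than any *Fire*+/+ cell, and some of them far more. The highest count in 5885 *Fire*+/+ cells was 22 UMIs, and 15 of 6696 *Fire*Δ/Δ cells had more, from 24 to 105 with a median of 53. Of the 15, 9 came from the hippocampus of mouse 3, 5 from the hippocampus of mouse 6 and 1 from the cortex of mouse 6, while the highest cell in the cortex of mouse 3 had 20 UMIs. Oligo1 held 14 of them and Oligo2 held 1. Their total UMI counts, from 8546 to 14650, lay within the range of the other 1391 Oligo1 cells of the same 3 libraries.

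The other genes described here were at low counts in these 15 cells. *Gjc3* had a median of 2 UMIs against 6 in the other Oligo1 cells, *Kcna1* 2 against 7 and *Kcnj10* 1 against 2. *Kcna2* had 0 UMIs in all 15, and its median in the other Oligo1 cells was also 0. The cells were picked for their *Gjb1* count after the values had been seen, so these are descriptions with no test.

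**Figure D2:**
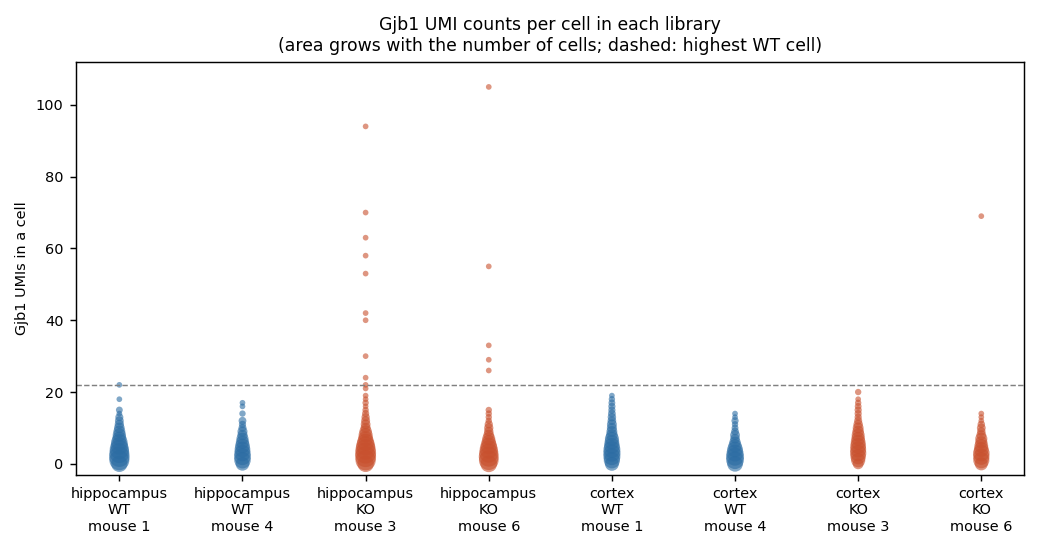
*Gjb1* UMI count per cell (y axis) in each of the 8 libraries; the area of a point grows with the number of cells at that count, blue is WT and red KO, and the dashed line is the highest WT cell at 22 UMIs. The 15 cells above the line are in the hippocampus libraries of mice 3 and 6 and, for 1 cell, the cortex library of mouse 6.

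*Gjc3* was lower in *Fire*Δ/Δ than in *Fire*+/+ mice in every batch, by differences that did not pass the test. In *Fire*+/+ mice its mean log2 value was 2.84 in hippocampus and 2.81 in cortex of mouse 1, and 3.01 and 3.02 in mouse 4. In *Fire*Δ/Δ mice it was 2.56 in hippocampus and 2.69 in cortex of mouse 3, and 2.76 and 2.81 in mouse 6. The genotypes overlapped only at the edge, where the highest *Fire*Δ/Δ library (2.812) lay just above the lowest *Fire*+/+ one (2.808). The difference was -0.21 (SE 0.17, 95% interval -0.63 to 0.21, limma, adjusted p = 1.00), and -0.28 to -0.12 in the 4 batches. Each pair of mice gave both a hippocampus and a cortex batch, so the 4 batches were not independent. Without Oligo1 cells it was -0.11.

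Within Oligo4 the *Gjc3* libraries of the genotypes did not overlap. The 4 *Fire*+/+ libraries had mean log2 values of 2.80 and 2.73 in hippocampus and cortex of mouse 1, and 2.88 and 2.95 in mouse 4. The 4 *Fire*Δ/Δ libraries had 2.41 and 2.29 in mouse 3, and 2.64 and 2.69 in mouse 6. All 4 *Fire*Δ/Δ libraries were lower, as were those of 1.8% of all genes tested in Oligo4. The difference was -0.33 (SE 0.18, 95% interval -0.71 to 0.05, limma, adjusted p = 1.00). With a block for mice of the same age its SE was 0.086 and its interval -0.51 to -0.16. The adjusted limma p was 0.0702, which also missed the threshold in a fit that called 0.618% of all genes tested. That fit held 4 mice and a block, so its SE leaned on the variance that limma pools over all genes. Its interval is therefore no measure of the spread between animals. The Oligo4 cortex values of mice 1 and 3 come from 38 and 47 cells. The difference was -0.14 to -0.10 in the 4 batches in Oligo2, and -0.10 to 0.014 in Oligo3, where 3 of 4 were lower in *Fire*Δ/Δ.

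By cluster, *Gjc3* ran in another order from *Gjb1*. Oligo3 was highest at 2.93 ± 0.10 (SD, 8 libraries) and above Oligo2 (2.76 ± 0.11) and Oligo4 (2.67 ± 0.23) in 8 of 8 libraries. Oligo2 lay above Oligo4 in 5 of 8, so these neighbours were not separated. Oligo1 was lowest, at 2.17 to 2.36 in its 4 libraries and below the other clusters in 4 of 4, by a median of 0.63 against Oligo3. *Gjc3* differed little between regions: -0.04 (SE 0.10, limma, adjusted p = 0.998), with 1 of 4 mice higher in hippocampus. Its genotype by region interaction, -0.10 (SE 0.035, 95% interval -0.20 to -0.0064), had an unadjusted limma p of 0.0412 and an adjusted p of 0.807.

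**Figure D3:**
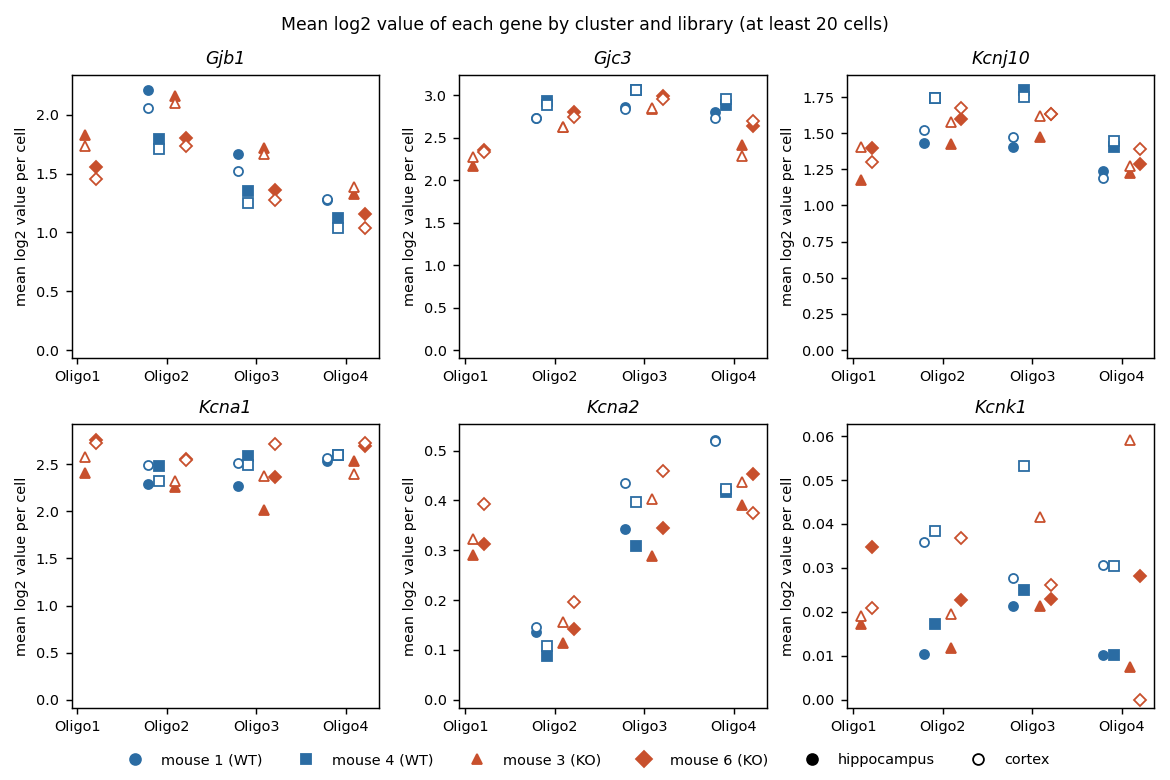
Mean log2 value per cell (y axis, starting at 0 for each gene) by deposited cluster (x axis) in each library with at least 20 cells of the cluster; blue is WT, red KO, filled symbols hippocampus and open symbols cortex. *Gjb1* steps down from Oligo2 to Oligo4 while *Kcna2* is lowest in Oligo2 (0.087 to 0.20), and *Gjc3* is lowest in Oligo1 (2.17 to 2.36).

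*Kcnj10* had a mean log2 value of 1.40 in hippocampus and 1.48 in cortex of mouse 1, and of 1.74 and 1.72 in mouse 4. In *Fire*Δ/Δ it was 1.35 in hippocampus and 1.56 in cortex of mouse 3, and 1.53 and 1.59 in mouse 6. *Fire*Δ/Δ values lay within the range of the *Fire*+/+ ones in all but the hippocampus library of mouse 3. The difference between genotypes was -0.08 (SE 0.12, 95% interval -0.38 to 0.22, limma, adjusted p = 1.00), and it was negative in 3 of 4 batches.

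Within Oligo2, Oligo3 and Oligo4, *Kcnj10* was lower in the libraries of mice 1 and 3 than in those of mice 4 and 6 without overlap, opposite in direction to *Gjb1*. Of all genes tested, 11.8%, 17.8% and 6.5% were lower in mice 1 and 3 in that way in Oligo2, Oligo3 and Oligo4. *Gjc3* was also lower in mice 1 and 3 without overlap in Oligo2 and Oligo3, and *Kcna1* in Oligo4. Between regions *Kcnj10* differed by -0.09 (SE 0.09, 95% interval -0.29 to 0.12, limma, adjusted p = 0.998), with 3 of 4 mice lower in hippocampus. Oligo2 (1.59 ± 0.13, SD, 8 libraries) and Oligo3 (1.60 ± 0.14) did not differ beyond their spread, and Oligo4 (1.31 ± 0.09) was below both in 8 of 8 libraries. Oligo1 (1.32 ± 0.11, 4 libraries) was below Oligo2 and Oligo3 in 4 of 4 and above Oligo4 in 2 of 4.

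Astrocytes also use *Kcnj10*, so their markers were set beside it. *Aqp4*, the astrocytic water channel, was found in 3.54 to 6.31% of cells and *Mlc1* in 3.74 to 6.41%, against at least 86.7% for *Kcnj10*. *Gfap* was in 4.27 to 14.2%, *Aldoc* in 26.8 to 40.4%, *Slc1a2* in 35.9 to 60.0% and *Slc1a3* in 38.7 to 59.8% of cells. The summed astrocyte list ran from 1.86 to 2.64 UMIs per 10000 in hippocampus and from 2.13 to 2.65 in cortex, and from 1.86 to 2.64 in *Fire*Δ/Δ and 2.23 to 2.65 in *Fire*+/+ libraries. Its part in the *Kcnj10* values was not tested.

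*Kcna1* was close in the genotypes on average and varied between mice. Its mean log2 value was 2.29 in hippocampus and 2.51 in cortex of mouse 1, and 2.57 and 2.47 in mouse 4. In *Fire*Δ/Δ it was 2.22 in hippocampus and 2.39 in cortex of mouse 3, and 2.54 and 2.68 in mouse 6. The *Fire*Δ/Δ libraries held both the lowest and the highest of the 8 values. The difference between genotypes was -0.0026 (SE 0.17, 95% interval -0.41 to 0.41, limma, adjusted p = 1.00), an interval that leaves room for changes of either sign.

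Hippocampus was lower than cortex for *Kcna1* in 3 of 4 mice. In Oligo3 the mean log2 value was 2.27 in hippocampus against 2.51 in cortex in mouse 1, 2.01 against 2.38 in mouse 3 and 2.37 against 2.72 in mouse 6, while in mouse 4 it was 2.58 against 2.49. The Oligo3 difference was -0.22 (SE 0.13, 95% interval -0.50 to 0.07, limma, adjusted p = 0.999), and with the mouse block adjusted p = 0.0859. Without mouse 4 the blocked limma difference was -0.32 (adjusted p = 0.00439), so that 1 animal decided the blocked call. That fit was not planned beforehand, and it called more of all genes tested than the blocked fit with every mouse. By cluster, Oligo4 (2.58 ± 0.10) lay above Oligo2 (2.41 ± 0.12) and Oligo3 (2.42 ± 0.21) in 8 of 8 libraries, and Oligo1 (2.62 ± 0.16, 4 libraries) lay above Oligo2 and Oligo3 in 4 of 4. Oligo1 and Oligo4 were not separated, with Oligo1 higher in 2 of 4 libraries.

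*Kcna2* was lower in hippocampus than in cortex, with the widest difference in log2 value in Oligo3, the largest cluster. In Oligo3 the hippocampus libraries had mean log2 values of 0.34 in mouse 1, 0.29 in mouse 3, 0.31 in mouse 4 and 0.34 in mouse 6. The cortex libraries of the same mice had 0.44, 0.40, 0.40 and 0.46. All 4 hippocampus libraries lay below all 4 cortex libraries, as did those of 2.71% of all genes tested in Oligo3. The difference was -0.10 (SE 0.024, 95% interval -0.16 to -0.049), higher in cortex in 4 of 4 mice, and limma gave an unadjusted p of 0.00155 and an adjusted p of 0.943.

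The call depended on how the fit used the animals. With mouse as a block the SE was 0.016, the interval -0.14 to -0.068 and the adjusted limma p 0.0034, in a fit that called 1.65% of all genes tested. Also with the block, edgeR on UMI sums gave -0.40 (adjusted p = 0.00736) and limma on log2 of the mean normalized value plus 0.1 gave -0.32 (adjusted p = 0.00901). Leaving out mouse 1, 3 or 4 left the blocked limma call in place (adjusted p = 0.0209, 0.0116 and 0.00434), and without mouse 6 it was lost (adjusted p = 0.0557). The blocked fits with edgeR and on the other scale were added after the data had been seen. The blocked fits that left out a mouse were not planned beforehand. Region and batch cannot be told apart in this difference either.

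The lower hippocampal value of *Kcna2* in Oligo3 was also seen on other scales. *Kcna2* made 0.483, 0.397, 0.422 and 0.503 UMIs per 10000 in the hippocampus of mice 1, 3, 4 and 6, against 0.611, 0.526, 0.573 and 0.660 in the cortex. The share of Oligo3 cells with a *Kcna2* UMI was 26.4 to 31.6% in hippocampus and 35.9 to 42.1% in cortex, which is not corrected for depth. With every cell thinned to 5000 UMIs it was 16.3 to 19.3% and 21.0 to 24.1%. None of these 3 measures overlapped between regions. All 3 come from the same counts as the log2 values, so they are not separate support. The share of all genes without overlap was worked out for log2 values alone.

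Over all oligodendrocytes the *Kcna2* difference between regions was smaller, -0.060 (SE 0.020, 95% interval -0.11 to -0.014, limma, adjusted p = 0.988), and lower in hippocampus in 4 of 4 mice. The log2 values of the regions did not overlap, as for 2.65% of all genes tested in the same direction, whereas its UMIs per 10000 overlapped (0.373 to 0.453 in hippocampus, 0.418 to 0.521 in cortex). With the mouse block the adjusted limma p was 0.0520, in a fit that called 0.627% of all genes tested. The difference was -0.056 in Oligo1, -0.031 in Oligo2 and 0.0069 in Oligo4, each with an adjusted limma p over 0.99. *Kcna2* was lower in hippocampus in 2 of 2 mice in Oligo1, 4 of 4 in Oligo2 and 2 of 4 in Oligo4. Its level was lower in Oligo2 (0.087 to 0.20), and the size of a log2 difference depends on the level. Differences between clusters in this contrast were not tested.

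Between genotypes *Kcna2* was 0.33 ± 0.025 (SD, n = 2) in *Fire*+/+ and 0.32 ± 0.034 (n = 2) in *Fire*Δ/Δ mice. The difference was -0.0043 (SE 0.031, 95% interval -0.080 to 0.071, limma, adjusted p = 1.00). *Kcna2* was lowest in Oligo2, at 0.087 to 0.20, and below Oligo3 and Oligo4 there in 8 of 8 libraries, the reverse of the place of *Gjb1*. Oligo4 (0.44 ± 0.05) was above Oligo3 (0.37 ± 0.06) in 7 of 8 libraries.

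*Kcnk1* was near the limit of detection. It had 432 UMIs in the 12581 cells, and a UMI in 1.98 to 3.26% of cells of the hippocampus libraries and 3.76 to 5.97% of the cortex libraries. With cells thinned to 5000 UMIs the shares were 1.04 to 1.57% and 1.49 to 2.80%, which overlapped. Its mean log2 values ran from 0.017 to 0.049. The shares were no higher than those of the astrocyte marker *Aqp4* (3.54 to 6.31%), which oligodendrocytes should lack, so the *Kcnk1* UMIs cannot be told apart from background RNA. In the cortex of mouse 6, 0 of 72 Oligo4 cells had a *Kcnk1* UMI, which allows a share of cells with a UMI of up to 4.17% at this depth and sets no limit on cells that express the gene. With no filter on low genes the difference between regions was -0.014 and that between genotypes -0.0038, with adjusted limma p of 0.667 and 1.00.

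**Figure D4:**
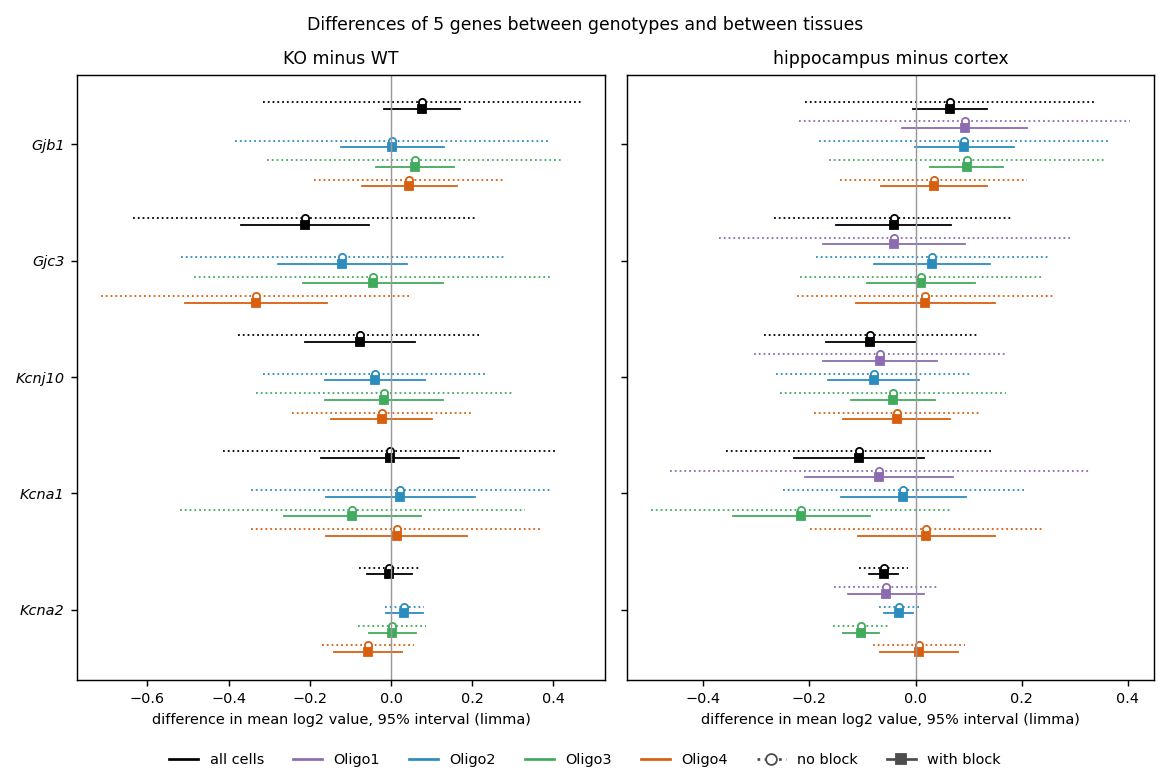
Difference in mean log2 value (x axis) of the 5 tested genes, KO minus WT on the left and hippocampus minus cortex on the right, in all cells and by cluster (colours); open circles with dotted 95% intervals are the fit with no block, and squares with solid intervals the fit with a block (mice of the same age on the left, mouse on the right). *Kcna2* in Oligo3 lies below 0 between regions in both fits (-0.16 to -0.049 and -0.14 to -0.068), and *Gjc3* in Oligo4 reaches from -0.71 to 0.05 between genotypes with no block.

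The wider families were taken whole by gene symbol: 117 genes in the matrix, 111 of them besides the 6. Few were found in these cells, and 23 had a UMI in at least 5% of cells, counting 5 of the 6. Of 12 connexins and pannexins, 4 were tested. The astrocytic connexins *Gja1* and *Gjb6* were in 9.76% and 2.78%. Of 13 inward rectifier genes, *Kcnj2* followed *Kcnj10* at 13.2%. Of 11 two-pore-domain genes, *Kcnk13* stood first at 72.3%, with *Kcnk5* (3.69%) and *Kcnk1* far below.

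Of 48 voltage-gated subunits and partners, 5 were tested, and *Kcnq3* (73.4%) and *Kcna6* (69.3%) came between *Kcna1* and *Kcna2*. The noncoding RNA *Kcnq1ot1* (65.1%) was caught by its symbol alone. Of 11 calcium- and sodium-activated channel genes, *Kcnma1*, the large-conductance calcium-activated channel, was in 5.94% of cells. Of 22 sodium pump and cation-chloride cotransporter genes, 9 were tested, among them the cotransporter gene *Slc12a2* (99.6%) and *Atp1b3* (99.3%).

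None of the 23 family genes passed between genotypes in all oligodendrocytes. Of them, 9 had a higher and 14 a lower value in *Fire*Δ/Δ, with a median difference of -0.0059 against 0.0013 over all genes tested, and 1 had an unadjusted limma p under 0.05 (*Kcnma1*). None passed between regions either, with 9 higher and 14 lower in hippocampus, a median of -0.012 against -0.0051 over all genes, and 4 with an unadjusted p under 0.05.

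With the mouse block, 4 of 22 family genes tested in Oligo3 passed between regions, 2 higher and 2 lower in hippocampus, where the fit called 1.65% of all genes. In Oligo1 2 of 25 passed, 1 in each direction, in Oligo2 1 of 23, lower in hippocampus (0.764% of all genes called), and in all oligodendrocytes 1 of 23, higher. Besides *Kcna2*, those reported here are the calls of *Kcnma1*. In Oligo3, by limma, it was higher in hippocampus by 0.033 (SE 0.0056, adjusted p = 0.00523), and higher in 4 of 4 mice. In Oligo1, where the blocked fit called 1.96% of genes, it was higher in hippocampus by 0.10 (SE 0.021, adjusted limma p of 0.0006). That fit held 4 libraries of 2 *Fire*Δ/Δ mice, so its SE leaned on the variance that limma pools over all genes. Its p is therefore no measure of the spread between animals. *Kcnma1* was there in 14.7 and 22.8% of cells in the hippocampus of mice 3 and 6, against 6.12 and 11.2% in the cortex.

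Across the 28 combinations of library and cluster with at least 20 cells, each gene had its own closest companions among the tested genes, by Pearson's r as a description. The combinations share libraries, depth and mice. *Gjb1* ran most like *Ermn* (0.95), *Prdx1* (0.94) and *Apod* (0.94), and *Gjc3* like *Plekhh1* (0.89), *Eps15* (0.88) and *Dync1li2* (0.87). *Kcnj10* ran most like *Nectin1* (0.93), *4933431E20Rik* (0.91) and *Arhgap21* (0.88). *Kcna1* ran most like *Srcin1* (0.81), *Klhl2* (0.80) and *Ptbp3* (0.78), and *Kcna2* like *Lgi3* (0.93), *Tmod1* (0.92) and *Ttc9* (0.91). Among the 6, *Gjb1* and *Kcna2* ran against each other (-0.81), *Gjc3* and *Kcnj10* together (0.68), and *Kcna1* and *Kcna2* less closely (0.42).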

How the data were processed

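Genotype, region, mouse and age came from the labels. The authors counted UMIs with Cell Ranger 5.0.0 on mm10, kept mature oligodendrocytes with at least 5000 UMIs and at most 10% mitochondrial UMIs, and deposited log2 values (log2 of UMI count over scran size factor, plus 1), without batch correction. Their deposited cell table gives UMI counts per cell, the size factor (a score), mitochondrial percent and clusters. Counts were recovered, all 42420937 values above 0 being whole within 0.001. Library totals were 12015360 to 27847948 UMIs. No doublet caller was run here. The gene annotation was GENCODE M21.

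Tests used limma 3.58.1 (R 4.3.3, trend, Benjamini-Hochberg, threshold 0.05) on mean log2 values of each gene present in 5% or more of cells (average of the libraries): genotypes over mice, with both libraries averaged, and regions over libraries with genotype in the model. Alternatives were edgeR 4.0.16 on UMI sums, another scale, filters, centring on the median gene, single regions or genotypes, blocks, and leaving out each mouse. Both libraries of a number come from 1 animal, so numbers pair the samples (correlation of deviations over 9257 genes, 0.84 in *Fire*+/+ and 0.85 in *Fire*Δ/Δ). Limits for a count of 0 use 3 counts. Named family genes were at most the 5 per family found in most cells, or past the threshold. The members and lists were chosen with earlier results of these data known. Some results for these families and markers are not reported here. Scripts were tested on simulated data.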

Additional observations from a re-analysis of the deposited data

Results flagged for a closer look

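In 5 results for 3 genes, the difference *Fire*Δ/Δ minus *Fire*+/+ ran one way in both batches of mice 1 and 3 (1 month and 18 days) and the other way in both batches of mice 4 and 6 (1 month and 16 days). These differences between the pairs were not tested. On the log2 scale, the mean over batches was 0.107 in the first pair and -0.140 in the second for *Kcnj10* in Oligo3. For *Kcna1* it was -0.103 and 0.149 in Oligo2, and -0.0842 and 0.111 in Oligo4. For *Kcna2* it was -0.0458 and 0.0372 in all oligodendrocytes, and -0.0445 and 0.0499 in Oligo3. For *Kcnk1* in Oligo2 the mean difference was 0.0034 in the hippocampus batches and -0.00888 in the cortex batches. The sign was the same in both batches of a region and opposite between regions, also not tested. These values rest on 5 to 18 UMIs per library, near the limit of detection. By share of cells with a UMI the sign was reversed in batch 3 (1.32% in *Fire*+/+, 1.13% in *Fire*Δ/Δ) and in batch 6 (4.98% and 5.73%). Each pair is 1 mouse of each genotype, so a pair and its animals cannot be told apart.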

How the results depend on the processing

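Of the 10 comparisons, the genotype calls were few and moved with most settings. Over all oligodendrocytes 5 genes passed, against 9 on log2 of the mean normalized value plus 0.1, 0 with no filter, 3 with values centred on the median gene, 8 with edgeR, 3 in hippocampus alone, 3 in cortex alone, 28 with a block for mice of the same age and 2 without Oligo1 cells. In Oligo2, 2 passed, against 4 with edgeR and 11 with that block. In Oligo3, 1 passed, against 4 on the other scale, 0 with no filter, 3 with edgeR, 0 in either region alone and 5 with the block. In Oligo4, 9 passed, against 14 on the other scale, 5 with a filter at 10% of cells, 0 with no filter, 25 with edgeR, 2 in hippocampus alone, 4 in cortex alone and 58 with the block. Leaving out each mouse gave 52 to 77 genes in all oligodendrocytes, 23 to 45 in Oligo2, 23 to 40 in Oligo3 and 22 to 30 in Oligo4, where the lone mouse of a genotype is assumed to vary like the other pair. The causes were not tested.

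Between regions 0 genes passed without a block, against 2 in Oligo1 on the other scale, 3 in Oligo1 and 2 in Oligo4 with edgeR, and 1 for the interaction with edgeR. With the mouse block 58 passed in all oligodendrocytes, 184 in Oligo1, 71 in Oligo2, 151 in Oligo3 and 6 in Oligo4. In Oligo3, fits added after seeing the data gave 115 with edgeR and the block and 139 on the other scale and the block. Leaving out each mouse gave 0 to 0 genes in all oligodendrocytes and for the interaction, 0 to 1 in Oligo2 and in Oligo4, and 0 to 368 in Oligo3, where every count above 0 was with the block (20 without mouse 6, 54 without mouse 1, 77 without mouse 3, 368 without mouse 4). The blocked fits of Oligo3 that left out a mouse were also not planned beforehand. Among the members, the block on the main scale with all mice changed limma's call of *Kcna2* in Oligo3 and no other, while in Oligo3 *Gjb1* passed with the block on the other scale and with edgeR, and *Kcna1* with the block without mouse 4, and leaving out a mouse in Oligo1 gave values with no test.

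Members' differences changed sign in some settings, in each case for a result whose difference was smaller than its standard error. Between genotypes, in cortex alone *Kcna1* was 0.045 in all oligodendrocytes, 0.046 in Oligo3 and -0.014 in Oligo4, and *Kcnj10* 0.016 in Oligo3 and 0.015 in Oligo4; in hippocampus alone *Gjb1* was -0.025 in Oligo2 and *Kcna2* -0.0097 in Oligo3, where *Kcna2* was -0.0013 on the other scale and -0.017 with edgeR. Between regions, *Gjc3* was 0.0095 in *Fire*+/+ libraries alone and 0.0024 without Oligo1, and 0.0013 on the other scale in Oligo1. *Kcna1* in Oligo2 was 0.00022 on the other scale and 0.0027 with edgeR. In Oligo4 of *Fire*+/+ libraries alone, *Gjc3* was -0.00012, *Kcnj10* 0.0030, *Kcna1* -0.0071 and *Kcna2* -0.0024. The *Kcna2* interaction was 0.019 on the other scale, 0.0069 when centred and 0.063 with edgeR.

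Leaving out a mouse moved the genotype difference of *Gjb1* from -0.10 to 0.25 in all oligodendrocytes, -0.19 to 0.19 in Oligo2, -0.13 to 0.24 in Oligo3 and -0.085 to 0.18 in Oligo4. It moved that of *Kcnj10* from -0.22 to 0.070, -0.17 to 0.095, -0.18 to 0.15 and -0.13 to 0.082 in the same order, that of *Kcna1* from -0.15 to 0.15, -0.11 to 0.16, -0.27 to 0.079 and -0.11 to 0.13, that of *Kcna2* from -0.028 to 0.020 in all oligodendrocytes and -0.026 to 0.031 in Oligo3, and that of *Gjc3* from -0.15 to 0.059 in Oligo3. Region differences ran from -0.10 to 0.026 for *Gjc3*, -0.23 to 0.094 for *Kcnj10* and -0.17 to 0.037 for *Kcna1* in Oligo1, from -0.086 to 0.037 for *Kcna1* in Oligo2, and from -0.016 to 0.049 for *Gjc3*, -0.017 to 0.040 for *Kcna1* and -0.017 to 0.025 for *Kcna2* in Oligo4. The interaction ran from -0.25 to 0.064 for *Kcna1* and -0.012 to 0.011 for *Kcna2*.

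With 2 mice of each genotype, p-values rest on few animals, and without a block the 95% intervals of the 5 tested genes leave room for changes of either sign in every genotype comparison. *Kcnk1*, in at most 5.97% of cells of a library, is limited by depth.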

Other observations

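The 15 cells with the most *Gjb1*, 14 in Oligo1 and 1 in Oligo2, also differed in other genes from the other Oligo1 cells of the same libraries. Mean log2 values of *Ucn2*, which encodes urocortin 2, were 2.80 in the 15 cells against 0.06 in the other 1391, those of *Il33*, a cytokine gene of oligodendrocytes and other cells, 4.81 against 2.89, and those of *Tgfbi*, a gene known to respond to TGF-beta, 1.92 against 0.11. *Tgfbi* had a UMI in 14 of the 15 cells and in 11.9% of the others. *Btc*, which encodes betacellulin, had 1.83 against 0.09 and *Gadd45b*, a stress response gene, 1.72 against 0.10. On the other side were *Rhob* (0.79 against 2.91), *Aspa*, an enzyme gene of mature oligodendrocytes (0.67 against 2.32), and *Kcna1* (1.02 against 2.56). *Plpp3* (3.02 against 1.04) and *Cd63* (4.67 against 2.87) were also higher, and *Sept7* (2.28 against 4.02) was also lower. The genes named are a choice among those with large differences, and no common theme was tested. The 15 cells were chosen after seeing their values, and 9 of 15 are from 1 library, so no test was made.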
